A study of Homo sapiens with 6 samples.

Results

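Cytosolic ribosomal proteins are the protein components of the ribosome that works in the cytoplasm, and their genes were followed here in MM.1S, an established cell line from human multiple myeloma. A gene was a member when a probe set carried its symbol alone in the platform annotation and that symbol was RPL, RPS or RPLP followed by a number, or RPSA. RPS6K kinases, mitochondrial ribosomal proteins and pseudogenes were left out. The rule uses names only and gave 58 genes of the 11963 with a named probe set, from 96 probe sets, and each gene was read from its probe set of highest mean log2 signal. A further 16 ribosomal protein symbols, among them RPL5, RPL10, RPL13A, RPS2 and RPS3A, occurred only in probe sets annotated with several genes and were not members. RPLP0, RPSA, RPS27A, RPL26, RPL22L1 and RPL7L1 were not members either.

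The 6 groups were cells given enzastaurin for 3, 6 or 12 h and untreated cells taken at the same 3 times, with 1 array each. Enzastaurin is an inhibitor of protein kinase C beta, and its dose is not given in the sources used here. All RNA came from 1 cell line, total RNA was used, and the labels do not say whether separate cultures were used. The title of the series names beta-catenin, endoplasmic reticulum stress and apoptotic signalling as its subject. Each value is a MAS5 intensity, the brightness that MAS5 computes for a probe set, and each ratio is the log2 of enzastaurin over untreated cells at 1 time.

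Ribosomal proteins are made in matching amounts and assembled with ribosomal RNA in the nucleolus into a small subunit, which decodes the message, and a large subunit, which joins the amino acids. Their messenger RNAs begin with a run of pyrimidines (C or T), the terminal oligopyrimidine (TOP) element, and mTORC1 signalling through LARP1 controls how well such messages are translated. Plasma cells and myeloma cells secrete large amounts of antibody and depend on high ribosome output. Several family members have other roles, such as the binding of MDM2 by free RPL11 and RPL5 when assembly is disturbed.

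The start of the transcript is printed here because a pyrimidine run there marks the messages of this family. RefSeq windows of assembly GRCh38.p14 were found for 50 of the 58 members. Each line gives 20 bases before the annotated start and 20 from the start onward, 40 in all, read 5′ to 3′ on the strand of the gene. Capitals mark the longest run of at least 7 C or T that begins with C and covers a base between 5 before and 10 after the start. RPL36 is the 1 member called by the slope test, a call that some alternatives lose, RPL14, RPS9 and RPL19 were among the members with the lowest mean ratios, and RPL37A and RPS21 had a further probe set that differed from the first.
RPL36 (chr19:5690275-5690314, + strand): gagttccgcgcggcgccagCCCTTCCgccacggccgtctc
RPL14 (chr3:40457319-40457358, + strand): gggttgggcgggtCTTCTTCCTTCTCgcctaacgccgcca
RPL19 (chr17:39200303-39200342, + strand): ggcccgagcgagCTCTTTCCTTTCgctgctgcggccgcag
RPL37A (chr2:216498824-216498863, + strand): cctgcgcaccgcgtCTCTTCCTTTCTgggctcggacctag
RPS9 (chr19:54200838-54200877, + strand): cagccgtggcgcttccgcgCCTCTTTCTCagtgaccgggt
RPS21 (chr20:62387083-62387122, + strand): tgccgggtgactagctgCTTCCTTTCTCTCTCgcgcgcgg

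RPL11 and RPS6 are shown as members with a known role in signalling, and RPS27 with RPS27L, RPL39, RPL26L1 and RPL36AL as standard genes and paralogs. A paralog is a second gene for nearly the same protein.
RPL11 (chr1:23691786-23691825, + strand): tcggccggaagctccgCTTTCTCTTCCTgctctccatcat
RPS6 (chr9:19380217-19380256, - strand): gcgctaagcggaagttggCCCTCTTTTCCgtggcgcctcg
RPL39 (chrX:119791611-119791650, - strand): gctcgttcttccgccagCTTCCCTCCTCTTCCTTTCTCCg
RPS27 (chr1:153990742-153990781, + strand): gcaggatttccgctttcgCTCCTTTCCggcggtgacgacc
RPS27L (chr15:63157458-63157497, - strand): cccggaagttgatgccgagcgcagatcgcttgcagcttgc
RPL26L1 (chr5:172958709-172958748, + strand): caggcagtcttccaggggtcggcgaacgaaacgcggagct
RPL36AL (chr14:49620607-49620646, - strand): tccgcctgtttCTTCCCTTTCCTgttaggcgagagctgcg

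The run was found in 40 of the 50 members (80%), against 17.1% of all 27305 genes of the RefSeq table. It was present in 38 of 45 standard members (84.4%) and in 1 of 4 paralogs, RPL36AL. Members without it in this window were RPL10L, RPL12, RPL26L1, RPL27, RPL3, RPL32, RPL6, RPS27L, RPS29 and RPS4X, and the annotated start of a gene need not be the one MM.1S cells use. Among other genes whose messages are known for TOP elements or translation, 10 of 14 held the run (71.4%), against 4 of 45 mitochondrial ribosomal protein genes (8.89%). In the whole window of 300 bases, the ETS core GGAAG or CTTCC was found in 94% of members and 75.4% of all genes. The YY1 core ATGGCNGC or GCNGCCAT was found in 18% of members and 8.97% of all genes, and the SP1 core GGGCGG or CCGCCC in 58% of members and 48.3% of all genes. TATAAA within 40 bases before the start was found in 4% of members and 3.09% of all genes. These are matches of letters, on both strands except for the run and TATAAA, and matches to the ETS core can lie inside or beside a pyrimidine run.

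All 6 arrays were close in overall brightness, with median intensities of 62.2 to 67.6. All 8 plasma cell markers passed the filter on low values, with a summed intensity of 16661 to 20016 in enzastaurin cells and 17824 to 22731 in untreated cells. None of the 8 T and NK cell markers passed, at sums of 246 to 310 over all arrays, and none of the 8 monocyte markers, at 134 to 218. COL1A1 and COL1A2 were the 2 of 8 fibroblast and epithelial markers that passed, at a summed intensity over the list of 302 to 421. HBB and HBD passed among the 4 erythroid markers with a probe set, and the erythroid sum was 1571, 861 and 380 in enzastaurin cells at 3, 6 and 12 h, against 992, 1089 and 1415 in untreated cells. The control probe sets for 18S ribosomal RNA did not follow treatment alone, with a mean log2 intensity of 9.99, 3.79 and 3.02 in enzastaurin cells and 3.39, 11.98 and 9.29 in untreated cells. The log2 ratio of 3′ over 5′ signal for ACTB was 2.0, 0.57 and 0.86 in enzastaurin cells and 1.89, 1.16 and 1.60 in untreated cells, and that for GAPDH was 0.23, -0.11 and 0.24 in enzastaurin cells and 0.28, 0.23 and 0.30 in untreated cells. In RNA from bulk cells, fewer cells of a type and less RNA per cell cannot be told apart, and array scaling removes any change shared by all genes.

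No cytosolic ribosomal protein gene passed the test of enzastaurin against untreated cells over the 3 times. Genes were tested when the mean of log2 intensity lay in the upper 50 percent of probe sets, a geometric mean of 63.3 or more, and 56 of the 58 members did. RPL10L, a copy of RPL10 used in the testis, missed that filter at intensities of 24.8 to 37.2 over the arrays, and RPS4Y1 missed it too. Averaged over the 3 times, 28 of the 56 tested members lay above 0 and 28 below, and their mean ratios ran between -0.29 and 0.28. In limma's test of enzastaurin against untreated with time as a block, 0 of 56 members were called at a Benjamini-Hochberg adjusted p under 0.05 over the 6838 tested genes, of which 0.0585% were called. No member had an unadjusted p under 0.05 in that test, and the smallest adjusted p in limma was 0.980.

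The 95% interval of the mean ratio contained 0 for all 56 members. It also lay within 1 log2 unit, a 2-fold change, on both sides for all 56, against 67.4% of all tested genes. For 49 members it lay within 1.5-fold, a share that was not counted for all tested genes. The median margin of that interval was 0.28 for the members and 0.67 for all tested genes. Most members are bright, and the error in this fit leans on a prior that follows intensity. Bright genes outside the family also had small errors, with an SE of 0.11 for EEF1A1 and TPT1 and 0.13 for ACTB. The margin was not compared with that of other bright genes as a set. An interval around 0 does not show that a gene was unaffected, and differences smaller than these margins could not be seen. The interval concerns the mean over the times, and a ratio that changes between times counts as error in it.

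**Figure D1:**
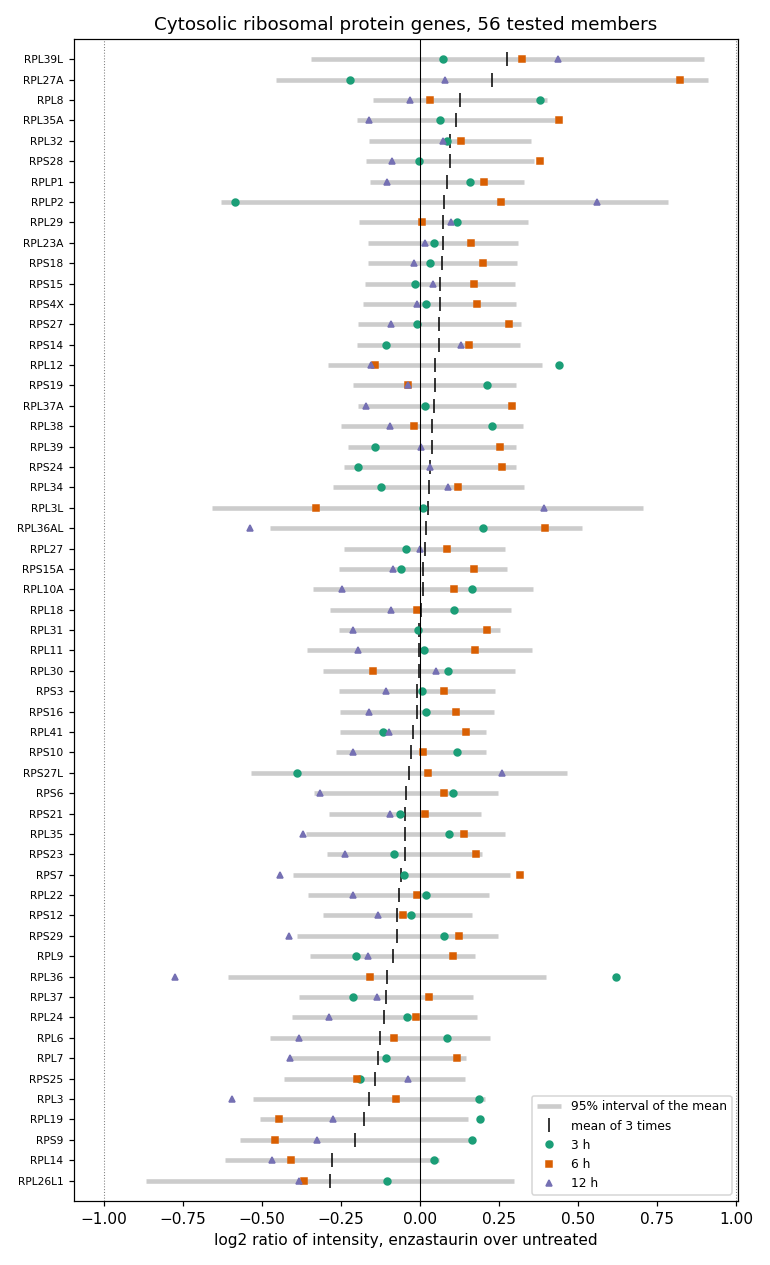
Log2 ratio of intensity (x axis, enzastaurin over untreated) for the 56 tested members (y axis, ordered by mean), with circles at 3 h, squares at 6 h and triangles at 12 h, a black tick for the mean and a grey bar for its 95% interval from limma. Dotted lines mark 1 log2 unit, no point lies beyond them, and every grey bar covers 0.

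The members also varied little from array to array. The median log2 range over the 6 arrays was 0.30 for the 56 members, against 0.86 for all tested genes. Much of the difference goes with brightness: 47 members had a mean log2 intensity above that of 4096, and their median range was 0.27, against 0.42 for the 77 other genes as bright. The 9 dimmer members had a median range of 0.75. The members' median intensity was 7188, 7184 and 6414 in enzastaurin cells at 3, 6 and 12 h and 7086, 6887 and 7146 in untreated cells, and members made up 8.53% to 9.29% of the summed intensity of the tested genes. The brightest member reached 74.4% to 89.7% of the brightest probe set of its array. How far signals near the top of the scale are compressed was not tested.

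At single times there is 1 array on each side and no test. The median ratio of the members was 0.02 at 3 h, 0.11 at 6 h and -0.11 at 12 h, against -0.04, 0.06 and -0.18 for all tested genes. The 77 other bright genes had medians of -0.02, 0.09 and -0.11, close to those of the members. By count, 32, 39 and 14 of the 56 members were higher with enzastaurin at 3, 6 and 12 h, against 46.4%, 54.4% and 38.9% of all tested genes. The 12 h median was -0.11 as deposited but 0.09 once the arrays were set to equal medians of the tested genes, and the 6 h median was -0.01 after quantile normalization. The direction of these small shifts therefore depends on the scaling. The width of the distribution was 0.17, 0.20 and 0.25 between quartiles for the members, against 0.29, 0.26 and 0.38 for the other bright genes and 0.59, 0.67 and 0.83 for all tested genes.

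**Figure D2:**
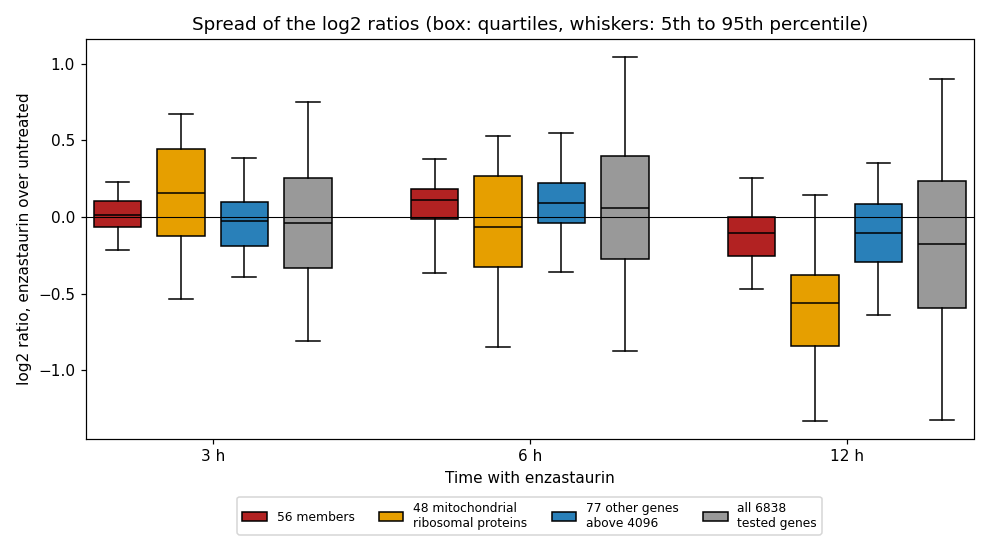
Log2 ratios at each time (x axis) in 4 sets of genes, with boxes for quartiles, a line for the median and whiskers for the 5th to 95th percentile (y axis, enzastaurin over untreated). The members have the narrowest boxes at all 3 times, and the boxes of mitochondrial ribosomal proteins lie lowest at 12 h, with a median of -0.56.

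Few members passed 1.5-fold at any time. At 3 h RPL36 was the 1 member higher, against 9.02% of all tested genes, and RPLP2 the 1 member lower, against 11.3%. At 6 h RPL27A was the 1 member higher, against 16.2%, and 0 members were lower, against 10.8%. At 12 h 0 members were higher, against 11.9%, and RPL36 and RPL3 were lower, against 25.4%. These 4 genes were the members past 1.5-fold at any time, against 59.0% of all tested genes, and no member passed 2-fold. Most of the 77 other bright genes also stayed within 1.5-fold at each time. Their 5th to 95th percentiles were -0.39 to 0.40 at 3 h, -0.37 to 0.55 at 6 h and -0.68 to 0.36 at 12 h. RPLP2 and RPL27A were read from dim sets, at mean intensities of 275 and 439. Signs mostly changed between times, as they did for all tested genes, of which 23.4% kept 1 sign at all 3. RPL23A, RPL29, RPL32 and RPL39L were higher with enzastaurin at all 3 times, RPL24, RPL26L1, RPS12 and RPS25 were lower at all 3, and 48 members were mixed. The 3 enzastaurin and 3 untreated arrays did not overlap for 3 members, higher for RPL23A and lower for RPS12 and RPS25, while 10.6% of all tested genes did not overlap.

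RPL36, a protein of the large subunit, was the 1 member of 56 called by the test of a slope of the effect over time, while 1.43% of all tested genes were called. Its intensity was 4937, 4035 and 2905 in enzastaurin cells at 3, 6 and 12 h, against 3216, 4502 and 4970 in untreated cells. The enzastaurin arrays ran from high to low over the times and the untreated arrays from low to high, so both sides contribute and the groups overlap. The ratios were 0.62, -0.16 and -0.77, and their mean was -0.10 (SE 0.23, n = 3 time-matched ratios). In limma the ratio changed by -0.70 (SE 0.19) for each doubling of hours, with an adjusted p of 0.0326. The 18S control signal, the ACTB ratio and the erythroid marker sum given above stood higher in enzastaurin cells at 3 h and in untreated cells at 6 and 12 h, and so moved with RPL36, while the GAPDH ratio was lower in enzastaurin cells at all 3 times. Their part in the slope was not tested. The call was lost in several alternatives, with adjusted p of 0.223 after quantile normalization, 0.333 with equal medians of the tested genes, 0.0705 with no filter on low values and 0.440 with no intensity trend.

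Over all members, 41 of 56 slopes were negative, against 57.0% of all tested genes, and the median slope was -0.08 for the members and -0.07 for all. Setting the arrays to equal medians moves all slopes together. That of RPL36 went from -0.70 to -0.61 with medians of the tested genes, and to -0.74 with those of all probe sets. Slopes this close to 0 therefore depend on the scaling, and their signs were counted only on intensities as deposited. RPL3, which lies next to the peptidyl transferase centre, was the other member with an unadjusted slope p under 0.05 in limma. Its intensity was 6084, 5102 and 3956 in enzastaurin cells, against 5348, 5378 and 5982 in untreated cells. The 12 h enzastaurin array was the lowest of the 6, and the groups overlap. Its mean ratio was -0.16 (SE 0.17).

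The large subunit was represented by 29 standard genes, with median ratios of 0.04, 0.09 and -0.16 at 3, 6 and 12 h, 14 mean ratios above 0 and 15 below. The lowest of these was RPL14, at 5834, 4180 and 4070 in enzastaurin cells and 5666, 5544 and 5635 in untreated cells. At 6 and 12 h the enzastaurin arrays stood below every untreated array, and at 3 h above them. The mean ratio of RPL14 was -0.28 (SE 0.15), with an adjusted p of 0.980 in limma. It was -0.44 without the 3 h pair, and 0.18 from the dim probe set 219138_at, the 1 that remains once sets with a suffix of shared probes are left out. From 200074_s_at it was -0.21, at a mean intensity of 2756 against 172 for 219138_at. RPL19, part of a bridge between the subunits, was likewise lower with enzastaurin at 6 and 12 h, at 6482, 5196 and 5818 in enzastaurin cells and 5689, 7084 and 7040 in untreated cells. Its mean ratio was -0.18 (SE 0.15), and -0.36 and -0.043 without the 3 h and the 6 h pair. At 3 h RPL19 was higher with enzastaurin, as was RPL14. The ribosomal RNA control signal, the ACTB ratio and the erythroid sum differed between treatments in the same directions at these times. With the ribosomal RNA signal as a covariate, the mean ratio was -0.19 for RPL14 and -0.072 for RPL19. The cause of these differences was not tested. RPL7 and RPL6 had mean ratios of -0.13 each, RPL24 and RPL37 of -0.11 each.

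Other members of the large subunit lay on the upper side. RPL27A, the only standard large subunit gene past 1.5-fold at 6 h, read 485, 534 and 415 in enzastaurin cells and 565, 302 and 392 in untreated cells. The untreated 6 h array was the lowest of its 6 values. The mean ratio of RPL27A was 0.23 (SE 0.31), read from a dim set with a mean intensity of 439. RPL8, close to the peptidyl transferase centre, was at 8687, 8269 and 8229 in enzastaurin cells and 6676, 8092 and 8418 in untreated cells, where only the untreated 3 h array stood apart, and its mean ratio was 0.13 (SE 0.13). RPL35A, one of the genes mutated in Diamond-Blackfan anaemia, had a mean ratio of 0.11 (SE 0.14), and RPL32 of 0.10 (SE 0.12).

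RPL11 joins RPL5 and 5S ribosomal RNA, and the free complex binds MDM2. It was measured at 3256, 4825 and 3618 in enzastaurin cells and 3227, 4277 and 4145 in untreated cells. It varied more between times than between treatments, and its mean ratio was -0.0030 (SE 0.16). RPL22 had a mean ratio of -0.07 (SE 0.13). That ratio was -0.33 without _x_at probe sets, where 214042_s_at was read. It was -0.07 from 221726_at, which remains once all sets with a suffix of shared probes are left out. RPL10A had a mean ratio of 0.01 (SE 0.16) and RPL29 of 0.07 (SE 0.12). RPL39, which lines the exit tunnel for the growing chain, had a mean ratio of 0.04 (SE 0.12).

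The small subunit had 20 standard genes, with median ratios of -0.01, 0.14 and -0.09, 9 mean ratios above 0 and 11 below. RPS9, which joins the small subunit early in assembly, was the lowest of them. It read 5249, 3811 and 3896 in enzastaurin cells, against 4684, 5243 and 4888 in untreated cells. The enzastaurin arrays were below the untreated ones at 6 and 12 h and above at 3 h, as for RPL14 and RPL19, and the mean ratio was -0.21 (SE 0.17). That of RPS9 was -0.87 without _x_at probe sets, -0.54 with the median over probe sets, and -0.39 and -0.081 without the 3 h and the 6 h pair, with no treatment call in any of these. With the ribosomal RNA signal as a covariate it was -0.10. That signal, the ACTB ratio and the erythroid sum differed between treatments in the same directions as RPS9 at each time, and the cause was not tested. RPS25, which some viral and cellular messages need for initiation without a cap, was at 5752, 5428 and 6062 in enzastaurin cells and 6570, 6237 and 6227 in untreated cells. All 3 enzastaurin arrays lay below all 3 untreated arrays, yet the difference was small, with a mean ratio of -0.14 (SE 0.13).

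RPS6 is the ribosomal protein that the S6 kinases phosphorylate downstream of mTORC1. Its RNA was measured at 7591, 7192 and 6065 in enzastaurin cells and 7060, 6820 and 7554 in untreated cells, higher with enzastaurin at 3 and 6 h and lower at 12 h. The mean ratio of RPS6 was -0.05 (SE 0.13). RPS19, the gene most often mutated in Diamond-Blackfan anaemia, read 8654, 7823 and 8127 in enzastaurin cells and 7468, 8034 and 8344 in untreated cells. RPS14, the gene behind the anaemia of the 5q- syndrome, read 8324, 8155 and 8768 in enzastaurin cells and 8976, 7329 and 8019 in untreated cells. The 2 genes had mean ratios of 0.05 and 0.06 (SE 0.12 each), with arrays of both treatments mixed in order. RPS27 and RPS4X were at 0.06 each, and RPS28 at 0.10.

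The acidic stalk, which draws elongation factors to the ribosome, was represented by RPLP1 and RPLP2. RPLP1 read 10025, 10246 and 9309 in enzastaurin cells and 8984, 8914 and 10006 in untreated cells, with a mean ratio of 0.08 (SE 0.11). RPLP2 read 250, 290 and 312 in enzastaurin cells and 375, 243 and 212 in untreated cells. Its ratios were -0.59, 0.26 and 0.56, so its order over time ran opposite to that of RPL36, and its mean was 0.08 (SE 0.32). RPLP2 was read from a dim set, 200908_s_at, with a mean intensity of 275 against 9566 for RPLP1. How well that set reads the main RPLP2 transcript was not tested.

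The paralogs passing the filter were RPL26L1, RPL36AL, RPL39L, RPL3L and RPS27L, and 0 of these 5 were called in either test. RPL39L, best known from the testis, had the highest mean ratio of all members, at 500, 470 and 677 in enzastaurin cells and 475, 376 and 501 in untreated cells. The enzastaurin value was above the untreated one at each time, while the groups overlap. That mean ratio was 0.28 (SE 0.28). RPL26L1, a close copy of RPL26, had the lowest, at 785, 549 and 709 in enzastaurin cells and 846, 708 and 926 in untreated cells. It was lower with enzastaurin at each time, again with overlap, and its mean ratio was -0.29 (SE 0.27).

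RPS27L, a copy of RPS27 that p53 is known to induce, read 1312, 1704 and 1906 in enzastaurin cells and 1717, 1676 and 1594 in untreated cells. It was lower with enzastaurin at 3 h and higher at 12 h, and the mean ratio of -0.04 (SE 0.23) became 0.03 after quantile normalization. RPL36AL read 2808, 2508 and 1808 in enzastaurin cells and 2448, 1908 and 2624 in untreated cells, with ratios of 0.20, 0.39 and -0.54. RPL3L, the form of striated muscle, was dim at 81.5 to 119 over the arrays. The 5 paralogs, like the 9 dimmer members as a whole, had wider errors than the bright standard genes.

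**Figure D3:**
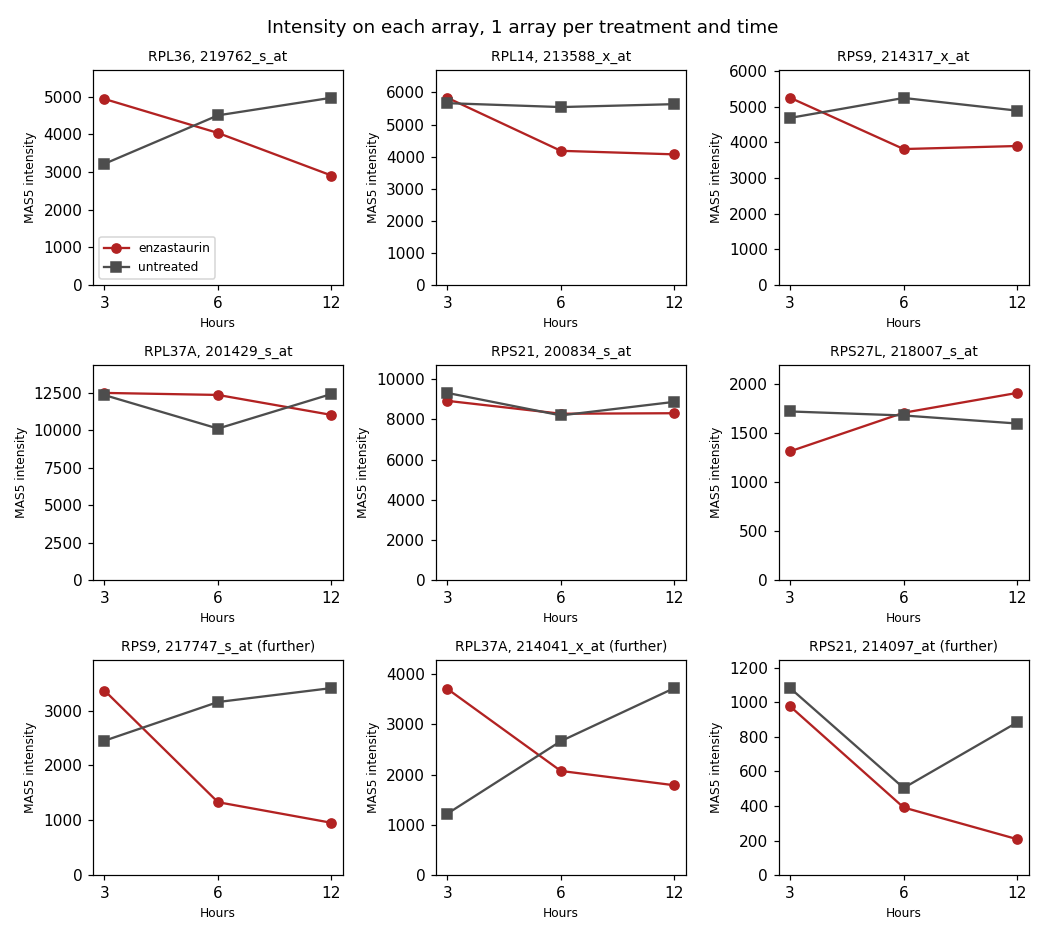
MAS5 intensity (y axis, from 0) at 3, 6 and 12 h (x axis) for 9 probe sets, with enzastaurin as circles and untreated as squares, 1 array per point and no error bar. The lines cross and move widely apart for RPL36 and for the further probe sets of RPS9 and RPL37A, while those of the reported sets of RPL37A and RPS21 stay closer.

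Several members had further probe sets, which read other stretches of the gene or partly other transcripts. There were 19 members with over 1 probe set past the filter, giving 30 further sets. In 8 of the 19 the sets disagreed in the sign of the mean ratio, and in RPS9 and RPS21 they differed by over 0.5. A fit of all 9798 probe sets past the filter called 0 of the 86 of the members for treatment. It called 3 of the 86 by slope, against 1.49% of all probe sets: the reported set of RPL36 and 1 further set each of RPS9 and RPL37A. The 2 further sets and that of RPS21 are described because of their values.

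RPS9 probe set 217747_s_at read 3364, 1331 and 956 in enzastaurin cells, against 2450, 3155 and 3409 in untreated cells. Its ratios were 0.46, -1.24 and -1.83, with the same signs as those of the reported set 214317_x_at but larger. Its slope was -1.15 (SE 0.25) for each doubling of hours, with an adjusted p of 0.00155 in limma. RPL37A probe set 214041_x_at read 3709, 2076 and 1791 in enzastaurin cells, against 1225, 2668 and 3724 in untreated cells. The enzastaurin arrays ran down over the times and the untreated arrays up, as for RPL36. Its slope was -1.33 (SE 0.25), with an adjusted p of 4.4e-05 in limma. Both slopes come from intensities as deposited, and neither further set was tested after quantile normalization or with equal medians of the tested genes. With these 2 scalings the slope test called 0 of the 6838 genes tested. The reported RPL37A set 201429_s_at had ratios of 0.02, 0.29 and -0.17. RPL37A probe set 213459_at, a dim one, had ratios of -0.16, -0.21 and -1.0.

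RPS21 probe set 214097_at read 976, 392 and 209 in enzastaurin cells, against 1082, 505 and 884 in untreated cells. The 12 h enzastaurin array was the lowest of the 6, with a ratio of -2.08, while the reported set 200834_s_at differed little, with ratios of -0.06, 0.01 and -0.09. The slope of 214097_at was -0.97, with an adjusted p of 0.195 in limma. Each of these genes has a pyrimidine run at its start in the windows above, as have most members whose levels differed little. The 18S control signal, the ACTB ratio and the erythroid sum moved with the sets of RPS9 and RPL37A in the same way as with RPL36, and their part in these slopes was not tested.

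**Figure D4:**
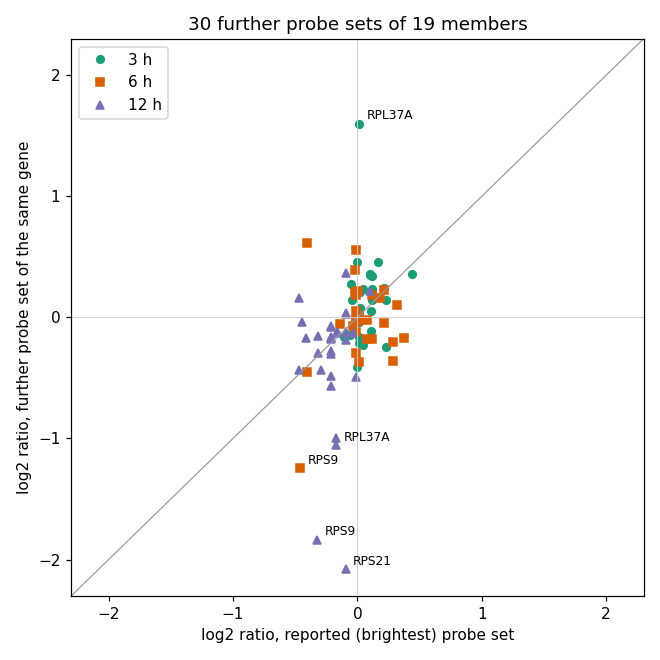
Log2 ratio of each further probe set (y axis) against the reported set of the same gene (x axis) for 19 members, with colour and shape for time and a grey line of equality. Most points lie near the centre, and those labelled are further sets whose own ratio of enzastaurin over untreated was at least 2-fold, those of RPL37A at 3 and 12 h, RPS9 at 6 and 12 h and RPS21 at 12 h.

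Genes that work with the ribosome were read from lists by function, and 0 genes of any list were called for treatment, against 0.0585% of all tested genes. The median of the mean ratios of all tested genes was -0.05, so most of those genes also lay below 0. Counts above and below 0 were made on intensities as deposited, and they depend on the scaling. Equal medians of the tested genes moved the median mean ratio of the members from -0.00034 to 0.062. Of 16 tested TOP and translation partners, 3 mean ratios were above 0 and 13 below, with a median of -0.06. EEF1A1, which delivers aminoacyl-tRNA, had a mean ratio of 0.10 (SE 0.11), TPT1 of 0.15 (SE 0.11) and HNRNPA1 of -0.36 (SE 0.26). The median of the list was -0.07, -0.11 and -0.09 at 3, 6 and 12 h. Among 31 initiation and elongation factors, 11 were above 0 and 20 below, with EIF5 at 0.61 (SE 0.23) and EIF2S1 at -0.51 (SE 0.28). Of 15 kinases and readers of TOP messages, 6 were above and 9 below, and CNBP, a binder of such messages, was at -0.46 (SE 0.24).

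Genes for the import, escort and assembly of ribosomal proteins had a lower median ratio at 12 h than before. The 21 tested had medians of -0.07, -0.05 and -0.48, against -0.04, 0.06 and -0.18 for all tested genes, with 7 mean ratios above 0 and 14 below. TNPO1, an importin that carries ribosomal proteins into the nucleus, had ratios of -0.43, -1.16 and -1.70 and a mean of -1.09 (SE 0.26). BYSL, needed to assemble the small subunit, read 177, 96.1 and 45.7 in enzastaurin cells and 107, 171 and 249 in untreated cells. The order was again high to low in enzastaurin cells and low to high in untreated cells. BYSL was the 1 gene called by slope of the 151 tested in all lists, against 1.43% of all tested genes, at -1.58 (SE 0.39) with an adjusted p of 0.00783 in limma. Its adjusted p was 0.167 after quantile normalization and 0.303 with equal medians of the tested genes, where the test called 0 genes in all. In the list of 5S complex assembly and MDM2 surveillance, 2 of 7 were above 0 and 5 below. RRS1, which loads the 5S complex, was at -1.02 (SE 0.34), while CDKN1A, the cell cycle inhibitor that p53 induces, was at 1.57 (SE 0.31). Of 13 quality control and recycling genes, 3 were above and 10 below, with ASCC3 at -0.49 (SE 0.29).

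Mitochondrial ribosomal proteins, the matching family of the other ribosome of the cell, were read for contrast. Of the 48 tested, 8 mean ratios were above 0 and 40 below, against 28 and 28 for the cytosolic members. The median of these mean ratios was -0.13, against -0.05 for all tested genes. The medians were 0.16, -0.07 and -0.56 at 3, 6 and 12 h, and 22 of 48 passed 1.5-fold at 12 h, in either direction, against 37.3% of all tested genes. MRPS18B, MRPS28 and MRPL16 had mean ratios of -0.76 (SE 0.31), -0.75 (SE 0.34) and -0.68 (SE 0.31). None of the 48 was called in limma by either test, and the difference between the 2 families was not tested.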

How the data were processed

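Total RNA of MM.1S cells was labelled with biotin and hybridised to Affymetrix arrays, per the labels' protocols. The authors deposited 1 linear intensity per probe set and array, computed by MAS5 according to the submitters' processing notes. Its version and scaling target, and detection calls, are not given in the sources used. The number of arrays limits the precision. Of 22277 probe sets, 62 were controls, 19064 had 1 symbol, 1043 several and 2108 none in the annotation.

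Intensities were floored at 1 and log2 transformed. The 50 percent of probe sets with the highest mean were kept, then 1 per gene, leaving 6838. R 4.3.3 and limma 3.58.1 (lmFit, eBayes with intensity trend) fitted treatment with time as a block, and then treatment by log2 hours (the slope) with 1 residual degree of freedom, whose error rests on a prior from all genes. Both were run on simulated data with independent normal error of the size fitted here. That run meets the assumptions of the tests and cannot show how they behave on these arrays. P-values were adjusted over all 6838 genes by Benjamini-Hochberg. They cover only spread among these arrays, possibly technical. In the treatment test that spread is how the ratio differs between times, so an effect that changes with time counts as error. The absence of treatment calls therefore concerns an effect shared by the times. In the slope test with the main settings the prior had infinite degrees of freedom. Its error came from the intensity trend over all genes and held none of the gene's own spread. No SD exists at single times.

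Members and lists were chosen with earlier results of these data known. Named were members past a test, the 10 highest and 10 lowest mean ratios, those past 1.5-fold at a time, a set of 28 genes of known role, members missing the filter, and up to 3 genes at each end of each list. Members named outside this rule, such as RPS12, RPL37A and RPS21, complete a count or were chosen after their values were seen. Members were matched to RefSeq windows by symbol. Protein sequences and probe sets of several genes were not used here.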

Additional observations from a re-analysis of the deposited data

Results flagged for a closer look

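A total of 3 probe sets of ribosomal protein genes had a ratio of enzastaurin over untreated that differed between times by limma's slope test. For RPL36 the slope was -0.70 for each doubling of hours, with ratios of 0.62 at 3 h, -0.16 at 6 h and -0.77 at 12 h. For RPL37A probe set 214041_x_at it was -1.33, while the brightest RPL37A set had a slope of -0.09. For RPS9 probe set 217747_s_at it was -1.15, against -0.25 for the brightest RPS9 set. After quantile normalization or with equal medians of the tested genes the slope test called 0 genes, and these 2 further sets were not tested. In all 3 the sign at 3 h was opposite to that at 6 and 12 h. The mean log2 intensity of the 18S controls was 9.99, 3.79 and 3.02 in enzastaurin cells and 3.39, 11.98 and 9.29 in untreated cells, and the erythroid marker sum was 1571, 861 and 380 in enzastaurin cells and 992, 1089 and 1415 in untreated cells. Their part in these slopes was not tested.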

How the results depend on the processing

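The treatment test called 0 members under all 15 alternatives, and the lowest adjusted p of a named member in any of them was 0.235 in limma. In 5 alternatives (no filter, floor of 16, every probe set, no trend, no time block) the mean ratios cannot move by construction. Of 302 values of named members in the other 10, 265 kept their direction and side of the threshold and 37 reversed. The slope test called 1 member, RPL36, with the processing described above. It called 0 after quantile normalization, with equal medians of the tested genes, with no filter and with no intensity trend. It called 3 with the median over probe sets (RPL36, RPL37A, RPS9). Without _x_at probe sets 48 members were tested and 2 called (RPL36, RPS9). Without any suffix of shared probes 20 members were tested and 0 called. RPL36 was not among these 20, as its 1 probe set carries such a suffix. The treatment test also had 48 and 20 members in these 2 settings. The slope of RPL36 was -0.57 with quantile normalization, -0.61 with equal medians of the tested genes, -0.70 with no filter (adjusted p 0.0705) and -0.70 with no trend (adjusted p 0.440, limma). Leaving out a pair leaves the slope no residual degree of freedom, so it was not tested. The 12 h median became 0.088 with equal medians of the tested genes and the 6 h median -0.011 after quantile normalization, and 7 members passed 1.5-fold with the median over probe sets. Equal medians over all probe sets gave mean ratios of -0.020 for RPL10A, -0.0096 for RPL36AL and -0.0050 for RPL3L. With equal medians of the tested genes it was 0.060 for RPL11, 0.027 for RPS27L and 0.018 for RPS6, and after quantile normalization 0.077 for RPL11, -0.0013 for RPL39 and 0.032 for RPS27L. The median over probe sets gave -0.012 for RPS4X and 0.059 for RPS6, leaving out _x_at sets gave 0.062 for RPS6, and leaving out all such suffixes gave 0.18 for RPL14. With the ribosomal RNA signal as a covariate it was 0.086 for RPL36, -0.018 for RPL39 and -0.10 for RPLP2. RPL14, RPL19 and RPS9 kept their direction with that covariate, at -0.19, -0.072 and -0.10. Leaving out each time in turn gave ranges of -0.070 to 0.13 for RPL10A, -0.092 to 0.093 for RPL11, -0.11 to 0.0032 for RPL22, -0.071 to 0.45 for RPL27A, -0.34 to 0.055 for RPL3, -0.050 to 0.25 for RPL35A and -0.47 to 0.23 for RPL36. They were -0.17 to 0.30 for RPL36AL, -0.070 to 0.13 for RPL39, -0.16 to 0.20 for RPL3L, -0.26 to 0.0042 for RPL7, -0.00084 to 0.21 for RPL8, -0.17 to 0.41 for RPLP2 and -0.038 to 0.087 for RPS19. They were -0.050 to 0.14 for RPS27, -0.18 to 0.14 for RPS27L, -0.046 to 0.19 for RPS28 and -0.12 to 0.091 for RPS6. The cause of these changes was not tested. Over all genes the treatment test called 4, but 247 without the 3 h pair and 74 with the ribosomal RNA covariate, and the slope test 98, but 167 with equal medians over all probe sets and 0 after quantile normalization. The treatment test pairs the arrays by time, the only pairing the labels give, and without the time block it called 0 members too.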
